A study of Mus musculus with 4 samples.

Results

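Immediate early genes are transcribed within minutes of a stimulus, without need of new protein synthesis, and their transcripts are short-lived. Growth factors, stretch, hormones and also the handling of an animal or of its tissue induce them through MAP kinase, calcium and cyclic AMP signals that act on transcription factors already bound near these genes. Many of them encode transcription factors, such as AP-1 and EGR proteins, and others encode phosphatases, RNA-decay factors and inhibitors that end the response. A fixed list of 37 such genes was followed here, chosen by symbol. The arrays carried a named probe for 36 of them, 1 probe each, and Fosl1 had none. Probes were kept if brighter than 95% of blank and negative control spots on at least 2 arrays, which 35 of the 36 were, among 15955 genes kept in all. Of the 35, 33 passed on all 4 arrays, as did 91.1% of all genes kept. Il6, which encodes the cytokine interleukin 6, was not above background on any array, with spot medians of 83.2 and 81.2 units in the knockout and 79.4 and 89.3 units in wild type.

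The samples were ventricular muscle of male 129SV mice, 2 with a genetic deletion of Trpc6 (KO) and 2 wild type (WT), each read in 1 colour on 1 array. TRPC6 is a cation channel through which calcium enters cells after receptor activation. Age, the kind of deletion and any pooling of animals are not given in the sources used here, and nothing says that samples of a group came from separate animals, so each p-value reflects sample-to-sample spread that could be technical. The Trpc6 probe stayed within background, at 84.1 and 82.6 units in KO and 80.5 and 89.2 units in WT, and cannot check the labels. The limit for background was 85.5 and 83.3 units on the KO arrays and 80.8 and 91.5 units on the WT arrays. Precision is limited by having 2 arrays per group. Levels below are spot medians as deposited, or log2 intensities after background correction and quantile normalization, given as mean ± SD (n = 2 arrays per group). Fold changes are KO minus WT log2 differences ± the standard error from limma, and the normalization lets these be compared where spot medians of different arrays cannot.

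Immediate early genes lay lower in KO ventricle more often than higher. Of the 35 kept genes 24 had a lower and 11 a higher mean in KO, where 48.9% of all genes tested were lower and 51.1% higher. The median log2 fold change was -0.068, or -4.61%, and over all genes it was 0.0017. Nr4a2, kept through the KO arrays alone, is counted among the 11. With the filter on all 4 arrays, which drops Nr4a2 and Dusp5, the split was 24 lower and 9 higher. With scaling to a common 75th percentile, a change that moved the median of all genes to 0.039, the split was 19 lower and 16 higher. Of all genes, 30.2% were lower under that scaling. An unadjusted limma p under 0.05 was reached by 7 genes, all lower in KO (20.0%), against 3.08% of all genes in that direction, and by 0 genes higher in KO, against 3.67%. Over all genes that was 491 lower and 585 higher, a split that became 676 and 397 with median scaling and 462 and 198 in the authors' processed values. These 7 were Btg2, Btg1, Dusp4, Jun, Ptgs2, Socs3 and Klf10. None of them passed the limma test adjusted by Benjamini-Hochberg over all genes, which called 0.0% of genes, and their adjusted p-values were 0.727 to 0.739. The list holds many bright probes, and among genes at or above its median log2 intensity 6.16% were lower and 6.83% higher in KO at an unadjusted p under 0.05. Of the 18 brighter genes of the list 6 were lower and 0 higher at that level, and 12 had a lower and 6 a higher mean. In a bulk sample, fewer cells of a type and less RNA per cell cannot be told apart.

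**Figure D1:**
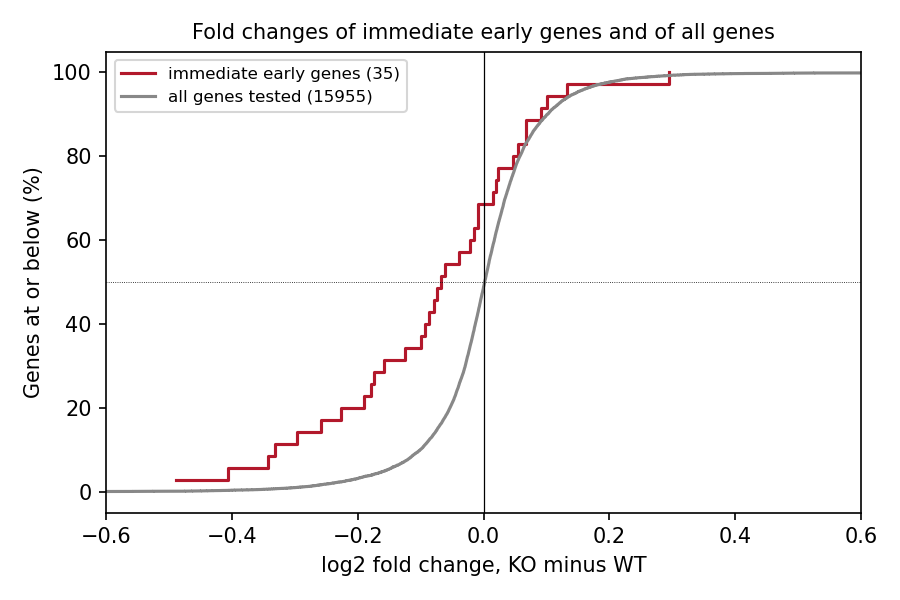
Cumulative share of genes (vertical axis, percent) at or below each log2 fold change, KO minus WT (horizontal axis), for the 35 immediate early genes and for all 15955 genes tested. The line of the immediate early genes lies left of the other over negative log2 fold changes, with medians of -0.068 and 0.0017.

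The antiproliferative genes Btg1 and Btg2, whose proteins bind the CCR4-NOT deadenylase and slow cell division, had the lowest log2 fold changes of the list. Btg1 had spot medians of 245 and 222 units in KO and 307 and 363 units in WT. Its log2 intensity was 7.72 ± 0.12 in KO and 8.20 ± 0.08 in WT, a log2 fold change of -0.49 ± 0.08, with an unadjusted limma p of 0.00231. Btg2, which is also a target of p53, had 126 and 132 units in KO and 156 and 183 units in WT. Its log2 fold change was -0.41 ± 0.06, with an unadjusted limma p of 0.00147 and an adjusted p of 0.727. Both KO arrays lay below both WT arrays for either gene. In the authors' processed values Btg2 was at 41.0 and 51.7 units in KO and 76.3 and 77.0 units in WT, a KO to WT ratio of 0.605, and the ratio for Btg1 was 0.667. Btg1 and Btg2 stayed lower at an unadjusted limma p under 0.05 in each of the 17 alternative settings, with log2 fold changes of -0.63 to -0.40 and -0.74 to -0.35. Alternatives that change only the filter, probe choice, variance model or replicate block cannot move the fold change of a gene with 1 probe. In 4 of the 17 settings 1 group has a single array, which is assumed to vary like the other group. Their lowest adjusted limma p-values over those settings were 0.160 for Btg1 and 0.142 for Btg2, so neither passed in any.

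Jun, the central AP-1 subunit, had spot medians of 250 and 241 units in KO and 286 and 361 units in WT. Its log2 intensity was 7.80 ± 0.05 in KO and 8.14 ± 0.16 in WT, a log2 fold change of -0.34 ± 0.09 with an unadjusted limma p of 0.0135. The groups did not overlap, and the second WT array was the highest. Without that array the log2 fold change was -0.23, and after subtraction of the local background its sign turned, to 0.39 with an unadjusted limma p of 0.0114, so that its direction depends on that step.

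Dusp4 encodes a nuclear phosphatase that inactivates MAP kinases. It had 142 and 141 units in KO and 160 and 171 units in WT, and its log2 fold change was -0.19 ± 0.04. Socs3, an inhibitor of JAK-STAT signalling that cytokines induce, had 499.7 and 506 units in KO and 544 and 647 units in WT, and a log2 fold change of -0.16 ± 0.06. Klf10, a zinc finger factor induced by TGF-beta, had 114 and 119.6 units in KO and 132 and 135 units in WT, and a log2 fold change of -0.18 ± 0.07. Ptgs2, the inducible cyclooxygenase, was dim, at 94.1 and 93.9 units in KO and 96.8 and 107 units in WT, with a log2 fold change of -0.0997 ± 0.037. The groups of these 4 genes did not overlap on the normalized scale. Their unadjusted limma p-values were 0.00796 for Dusp4, 0.0492 for Socs3, 0.0494 for Klf10 and 0.0489 for Ptgs2. Socs3 kept its sign and a p under 0.05 in 7 of the 17 alternatives, Klf10 and Ptgs2 in 8, and Dusp4 and Jun in 14.

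**Figure D2:**
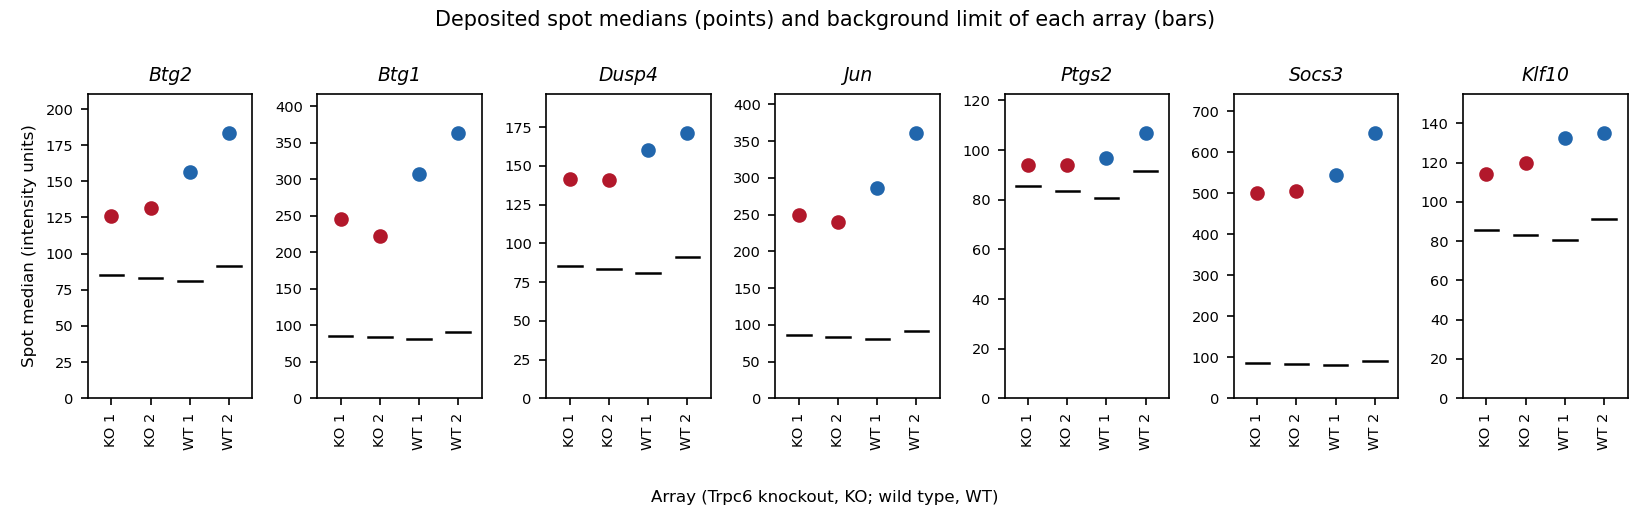
Deposited spot medians (vertical axis, intensity units, from 0) of the 7 genes with an unadjusted p under 0.05, on each KO and WT array; short bars mark the background limit of the array. The points stand before normalization, so arrays compare only loosely. For each of the 7 genes both KO points lie below both WT points, and those of Ptgs2 lie close to the background limit.

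Promoter windows were read for the genes of the list with the smallest p that the sequence table holds, and for Fos, to show which known response sequences lie there. Each window is 300 bases from RefSeq on GRCm38.p6, 250 before to 50 after the annotated start, printed 5′ to 3′ in the direction of the gene. They lie at chr1:134079106-134079405 on the minus strand for Btg2, chr10:96616751-96617050 on the plus strand for Btg1, chr4:95052173-95052472 on the minus strand for Jun, chr1:150099781-150100080 on the plus strand for Ptgs2 and chr12:85473640-85473939 on the plus strand for Fos. Capitals mark the matches to the 8 motifs searched on both strands, which are spelled out after the sequences.
Btg2: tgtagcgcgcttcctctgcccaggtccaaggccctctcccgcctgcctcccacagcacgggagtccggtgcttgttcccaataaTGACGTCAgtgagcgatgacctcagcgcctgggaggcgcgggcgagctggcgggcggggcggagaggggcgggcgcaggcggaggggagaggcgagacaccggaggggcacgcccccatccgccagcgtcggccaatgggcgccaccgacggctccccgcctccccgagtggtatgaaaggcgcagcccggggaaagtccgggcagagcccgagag
Btg1: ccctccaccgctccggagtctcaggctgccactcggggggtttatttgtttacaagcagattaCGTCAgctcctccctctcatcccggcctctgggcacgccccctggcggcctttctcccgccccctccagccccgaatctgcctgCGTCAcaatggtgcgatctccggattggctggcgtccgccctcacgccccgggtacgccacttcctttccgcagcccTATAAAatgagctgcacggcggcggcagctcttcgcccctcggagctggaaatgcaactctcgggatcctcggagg
Jun: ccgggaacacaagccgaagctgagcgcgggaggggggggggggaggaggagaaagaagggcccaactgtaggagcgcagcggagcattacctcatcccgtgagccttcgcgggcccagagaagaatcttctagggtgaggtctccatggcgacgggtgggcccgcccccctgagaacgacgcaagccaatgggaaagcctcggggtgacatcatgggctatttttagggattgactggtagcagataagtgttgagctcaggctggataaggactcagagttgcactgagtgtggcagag
Ptgs2: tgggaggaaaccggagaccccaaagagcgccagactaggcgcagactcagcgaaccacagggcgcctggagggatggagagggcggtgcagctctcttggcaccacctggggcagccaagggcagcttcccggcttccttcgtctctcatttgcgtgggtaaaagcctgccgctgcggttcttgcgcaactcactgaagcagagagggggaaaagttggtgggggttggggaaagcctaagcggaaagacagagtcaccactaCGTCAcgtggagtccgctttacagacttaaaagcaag
Fos: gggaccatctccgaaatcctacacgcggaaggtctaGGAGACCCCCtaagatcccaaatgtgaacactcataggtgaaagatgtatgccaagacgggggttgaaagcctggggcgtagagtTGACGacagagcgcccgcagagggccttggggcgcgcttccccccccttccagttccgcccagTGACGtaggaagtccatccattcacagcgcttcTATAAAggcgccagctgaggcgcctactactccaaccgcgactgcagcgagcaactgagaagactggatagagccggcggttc

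The motifs were the cyclic AMP response element TGACGTCA and its half-site TGACG, which it contains, the AP-1 site TGANTCA, the EGR site GCGGGGGCG, the ETS site CCGGAAG, the TATA sequence TATAAA, and the CArG box of serum response factor and the NF-kB site, both given by name. The Btg2 window held the full cyclic AMP response element, starting 166 bases before the start. Btg1 held 2 half-sites, 187 and 103 bases before the start, and a TATA sequence 26 bases before it. Fos held 2 half-sites, an NF-kB match and a TATA sequence. Ptgs2 held a half-site after the annotated start. In the Jun window none of the motifs matched, and other spellings of them were not searched. Windows were found for 28 of the 35 kept genes. The half-site was present in 17 of the 28 (60.7%), against 23.0% of the 27025 genes with a window. The full element was present in 3 (10.7%, against 2.03%), the CArG box in 3 (10.7%, against 1.81%), the EGR site in 7 (25.0%, against 3.31%) and the NF-kB site in 7 (25.0%, against 5.14%). The AP-1 site was in 2 (7.14%, against 8.97%), the ETS site in 1 (3.57%, against 9.93%) and the TATA sequence in 6 (21.4%, against 15.7%). The windows of the list were richer in G and C, with a median of 63.0% against 52.7% of all windows. A match is a description of the sequence and not a binding site. Sites more than 250 bases before the start lie outside the windows and were not searched, for Fos and the CArG box too.

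Jun was the one AP-1 gene with an unadjusted limma p under 0.05. Of 8 kept bZIP genes 5 were lower and 3 higher, with a median log2 fold change of -0.015. Fos, the classic partner of Jun, was near background, at 86.4 and 84.4 units in KO and 83.5 and 92.2 units in WT, close to the background limits, and its log2 fold change was -0.02 ± 0.04. Fosb had 228 and 211 units in KO and 209 and 243 units in WT, with a log2 fold change of 0.05 ± 0.07, and its groups overlapped. Fosl2, a slower and more lasting Fos relative, had 92.6 and 91.9 units in KO and 92.9 and 104 units in WT, a log2 fold change of -0.07 ± 0.04 without overlap. Junb had 125 and 126 units in KO and 122 and 137 units in WT, and Jund, the constitutive Jun protein, had 144 and 145 units in KO and 135 and 158 units in WT. Their log2 fold changes were 0.01 ± 0.04 and 0.07 ± 0.05, with 95% intervals of -0.09 to 0.12 and -0.07 to 0.21. The intervals of Junb and Jund do not reach the value of Jun, whose own interval was -0.57 to -0.11, and the difference between the genes was not tested. Maff, a small Maf protein that pairs with other bZIP factors, had 115 and 119 units in KO and 112 and 133 units in WT, and a log2 fold change of -0.01 ± 0.06.

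Atf3, a stress-induced bZIP factor, had spot medians of 96.5 and 91.8 units in KO and 94.0 and 140 units in WT. A single array, the second WT array, stood above the other 3, and the groups overlapped. The log2 fold change was -0.33 ± 0.20 with all arrays and -0.04 with the second WT array left out. Klf4, a zinc finger factor of endothelium and smooth muscle, was also highest on the second WT array, with 191 and 189 units in KO and 194 and 282 units in WT, and had a log2 fold change of -0.26 ± 0.16, or -0.03 with that array left out. Its first WT array lay just above both KO arrays.

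The zinc finger factors of the EGR and KLF families lay lower in 5 of 6 genes, with a median log2 fold change of -0.097. Egr1, which responds to stretch and growth factors, had 101 and 89.2 units in KO and 107 and 102 units in WT. The log2 intensities of its groups overlapped, at 6.07 ± 0.18 in KO and 6.20 ± 0.20 in WT, and the log2 fold change was -0.13 ± 0.13. Egr2 and Egr3 were close to background on every array, at 86.2 to 87.0 and 85.6 to 87.2 units in KO and 86.4 to 96.2 and 85.0 to 92.4 units in WT, with log2 fold changes of -0.07 ± 0.04 and -0.01 ± 0.04. Klf6 had 374 and 368 units in KO and 303 and 448 units in WT. The 2 WT arrays lay on either side of the KO arrays, and its log2 fold change was 0.10 ± 0.16.

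NR4A genes encode orphan nuclear receptors that calcium and cyclic AMP signals induce. Nr4a1 had 134 and 143 units in KO and 146 and 176 units in WT, with log2 intensities of 6.81 ± 0.07 in KO and 6.99 ± 0.11 in WT. The groups did not overlap, and its log2 fold change of -0.18 ± 0.07 had an unadjusted limma p of 0.0667. Nr4a3 was dim, at 86.7 and 83.3 units in KO and 84.3 and 91.9 units in WT, with a log2 fold change of -0.04 ± 0.04. Nr4a2 was above background on both KO arrays, at 86.6 and 83.6 units, and on neither WT array, at 80.8 and 90.4 units. It passed the filter through the KO arrays alone, so no direction is read from it beyond its place in the counts of higher genes. Its mean log2 intensities were 5.82 in KO and 5.80 in WT.

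Phosphatases that switch off MAP kinases went both ways, with 3 of 5 lower and a median log2 fold change of -0.0090. Dusp1, the first to be induced, had 401 and 371 units in KO and 478 and 392 units in WT. The KO arrays lay between the WT arrays on the log2 scale, and the log2 fold change was -0.09 ± 0.16, or 0.13 if the first WT array was dropped and -0.94 after subtraction of the local background, with an unadjusted limma p of 0.0269. Dusp6, which acts on ERK in the cytoplasm, had 203 and 169 units in KO and 183 and 179 units in WT, and a log2 fold change of 0.13 ± 0.13. Dusp2 was close to background, at 88.1 and 87.8 units in KO and 84.8 and 96.0 units in WT, with a log2 fold change of -0.0090 ± 0.04. Dusp5 was above background on 1 KO array and 1 WT array, at 84.2 and 86.1 units in KO and 82.8 and 88.7 units in WT, with a log2 fold change of 0.02 ± 0.05.

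The RNA-decay factors Zfp36 and Zfp36l1, which bind AU-rich elements and shorten the life of immediate early and cytokine transcripts, had smaller differences. Zfp36l1 had 233 and 224 units in KO and 249.5 and 262 units in WT, and a log2 fold change of -0.09 ± 0.05 without overlap. Zfp36 was near background, at 88.1 and 86.8 units in KO and 81.7 and 92.3 units in WT, and its log2 fold change was 0.05 ± 0.04. In the authors' processed values, which subtract a constant near the blank signal, Zfp36 was at 5.0 and 5.6 units in KO and 3.2 and 3.7 units in WT, a ratio of 1.54.

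Nfkbia, the IkB-alpha inhibitor that NF-kB itself induces, had the highest log2 fold change of the list. It had 703 and 638 units in KO and 488 and 695 units in WT, and its log2 fold change was 0.30 ± 0.15 with an unadjusted limma p of 0.111. The groups did not overlap after normalization, with 9.42 and 9.30 in KO and 8.86 and 9.27 in WT, but the second WT array was close to the KO arrays. Without the first WT array the log2 fold change was 0.09, and after subtraction of the local background it was -0.84, the other way, with an unadjusted limma p of 0.0287.

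Ier3 and Ier5, immediate early response genes tied to survival and stress signals, differed more between the WT arrays than between the group means. For Ier3 the KO arrays also differed, by -0.61 (second minus first), beside 0.51 for the WT arrays. Ier3 had 369 and 253 units in KO and 319 and 480 units in WT, and its log2 fold change was -0.30 ± 0.27, or 0.0089 with the second KO array left out. Ier5 had 218 and 229 units in KO and 196 and 379 units in WT. The second WT array stood above the other 3, and the log2 fold change was -0.23 ± 0.31, or 0.23 with it left out. Ier2 had 99.8 and 104.6 units in KO and 104 and 114 units in WT, with a log2 fold change of -0.06 ± 0.05. Myc, the growth-promoting transcription factor, had 89.4 and 86.9 units in KO and 85.6 and 102 units in WT, and -0.08 ± 0.06. Csrnp1, a nuclear protein induced by axin, and Arc, best known from synapses, had the reverse order without overlap, with log2 fold changes of 0.09 ± 0.04 and 0.07 ± 0.05. Csrnp1 had 109.7 and 107 units in KO and 102 and 113 units in WT, and Arc 93.1 and 94.4 units in KO and 89.7 and 96.7 units in WT, so that normalization set their order. After subtraction of the local background Csrnp1 was at -0.15, with an unadjusted limma p of 0.0401, the other way.

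**Figure D3:**
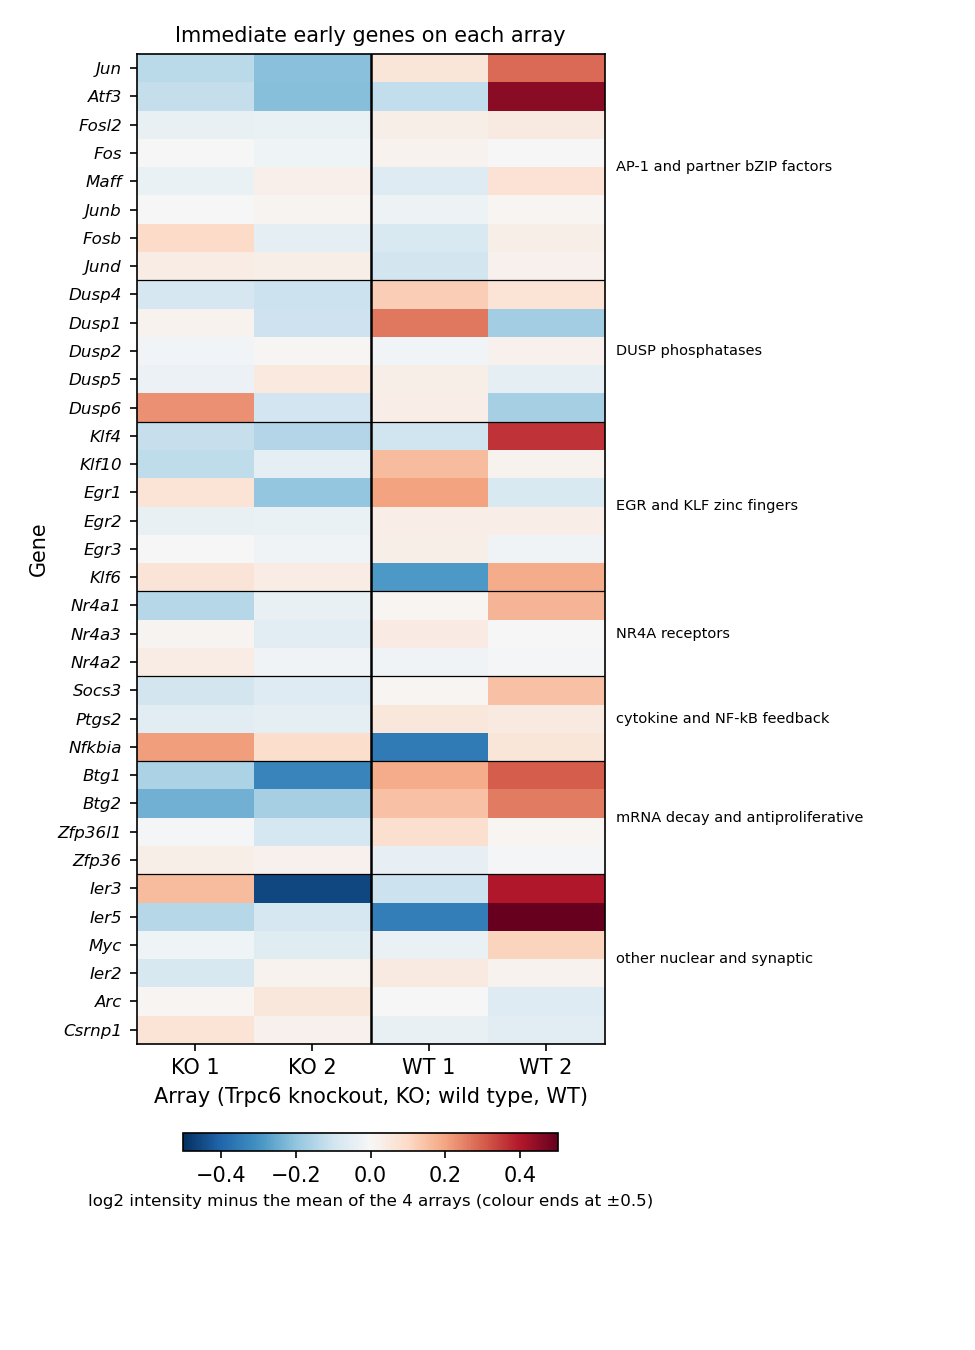
Log2 intensity of each of the 35 genes (rows, grouped by role) on each array (columns, KO then WT), as the difference from the mean of the 4 arrays; the colour scale ends at ±0.5. Btg1, Btg2 and Jun are low on both KO arrays, while Atf3, Klf4, Ier3 and Ier5 are high on the second WT array. Ier3 is also low on the second KO array.

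**Figure D4:**
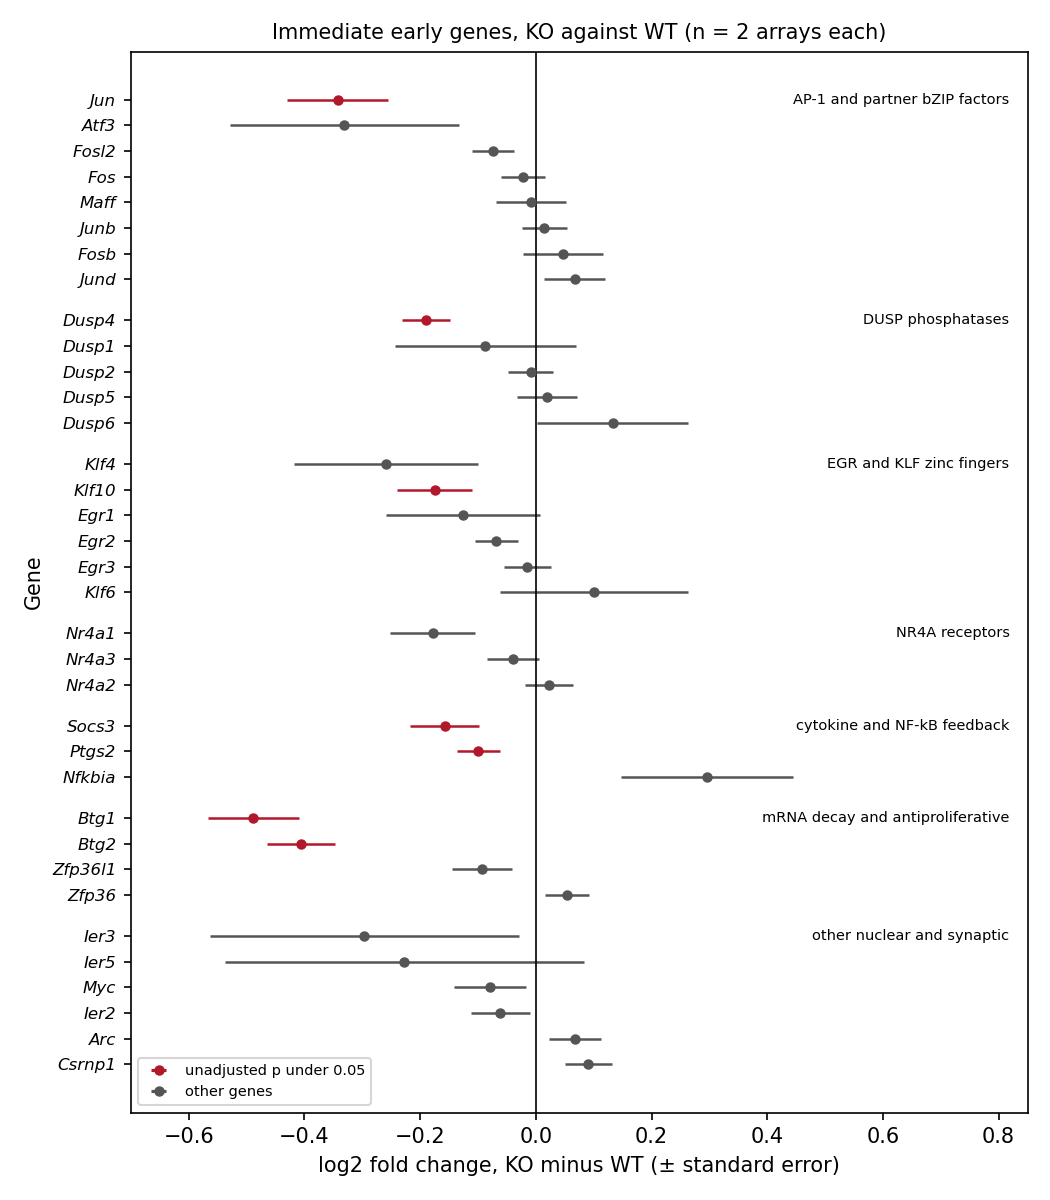
Log2 fold change of each gene (horizontal axis, KO minus WT, points) ± standard error (bars), by role; red points have an unadjusted p under 0.05. The values run from -0.49 for Btg1 to 0.30 for Nfkbia.

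The second WT array carried the highest normalized value of 15 of the 35 genes (42.9%, against 29.2% of all genes), and the second KO array that of 3 (8.57%, against 26.2%). Between the WT arrays 9 of the genes differed by at least 0.2 on the log2 scale (25.7%), where 11.2% of all genes did. Between the KO arrays 3 did (8.57%, against 5.38%). Between the group means, which average 2 arrays each, 8 did (22.9%, against 5.48%). Of the 8, 7 lay among the 18 brighter genes of the list and 1 among the 17 dimmer. The shares of all genes at this cut were not matched for brightness. The groups did not overlap in 13 genes with KO lower (37.1%, against 17.4% of all genes) and in 5 with KO higher, against 19.4%. Without the second WT array 22 genes were lower and 13 higher, with a median log2 fold change of -0.038, and 6 were lower and 3 higher (Nfkbia, Klf6 and Ier5) at an unadjusted limma p under 0.05, as were 3.57% and 3.46% of all genes. Without the second KO array the median was -0.027, and 2 genes, Btg1 and Btg2, were lower at that level, where the share of all genes was also smaller, at 1.22%.

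**Figure D5:**
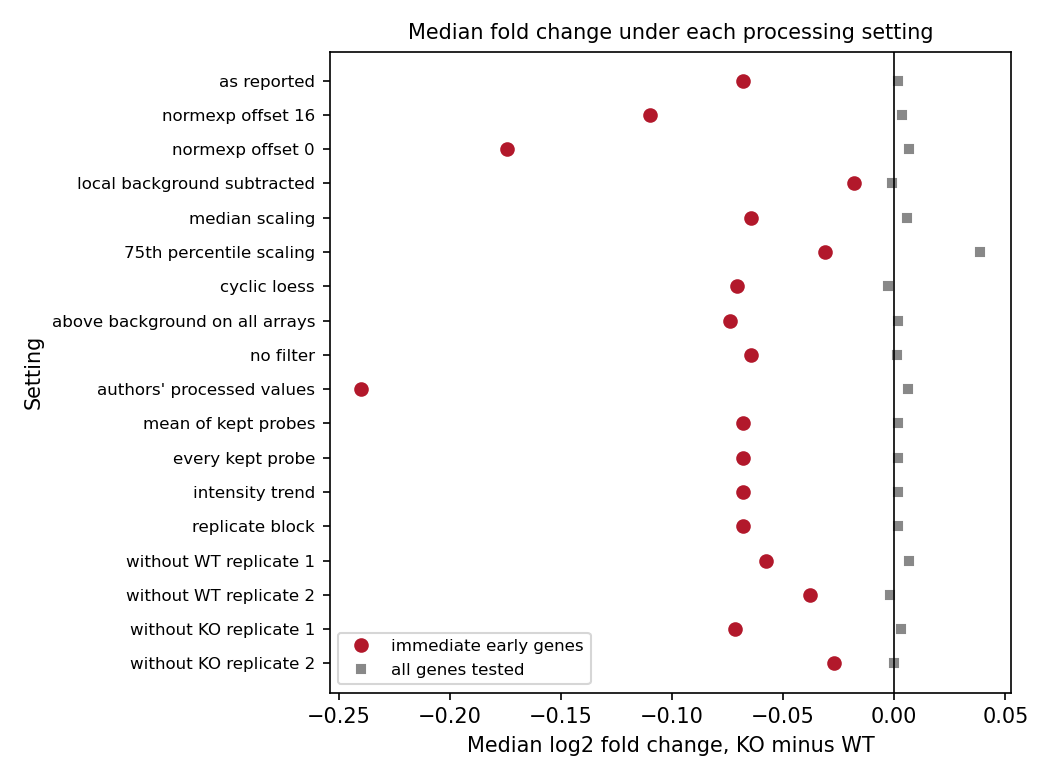
Median log2 fold change, KO minus WT (horizontal axis), of the immediate early genes and of all genes tested, as reported and under each of the 17 alternative settings (vertical axis). The median of the immediate early genes lies below 0 in each, from -0.24 to -0.018.

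The genes around this response were counted from the same fit, in which 48.9% of all genes had a lower and 51.1% a higher mean in KO, and an unadjusted p under 0.05 was reached by 3.08% with KO lower and 3.67% with KO higher. Upstream, 8 genes of serum response factor, its MRTF and ternary complex partners and the EGR repressors Nab1 and Nab2 had 4 lower and 4 higher and 0 at an unadjusted limma p under 0.05 in either direction. Srf was at 7.19 ± 0.0086 in KO and 7.20 ± 0.0036 in WT, Nab2 had a log2 fold change of -0.09 ± 0.04, and Elk1 and Mrtfa had 0.05 ± 0.05 and 0.04 ± 0.04. Of 8 genes of CREB and its coactivators 5 were lower and 0 reached that level, and Crtc3, a CREB coactivator controlled by phosphorylation, had -0.17 ± 0.07. Ep300 had -0.11 ± 0.11, Crtc1 0.06 ± 0.04 and Crebbp 0.05 ± 0.05. Of 13 kept genes of the MAP kinase cascade 3 were lower and 10 higher. Mapk7, the kinase ERK5, was at 7.21 ± 0.06 in KO and 7.40 ± 0.01 in WT, and Mapk14, p38-alpha, at 6.87 ± 0.05 in KO and 6.71 ± 0.01 in WT, each without overlap and with unadjusted limma p-values of 0.0107 and 0.0218. Map2k3, a kinase of p38, had 0.12 ± 0.05, and Mapkapk2, a p38 substrate, -0.11 ± 0.11.

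Among 12 other bZIP partners of AP-1 8 were higher and 0 reached an unadjusted limma p of 0.05 in either direction, with log2 fold changes of 0.09 ± 0.04 for Nfe2l1, 0.05 ± 0.04 for Mafg, -0.03 ± 0.04 for Batf3 and -0.02 ± 0.04 for Maf. Of 11 genes of NF-kB and its inhibitors 6 were lower. Ikbkb, the kinase that releases NF-kB from IkB proteins, was at 6.55 ± 0.12 in KO and 6.79 ± 0.07 in WT, with an unadjusted limma p of 0.0284, and Nfkbiz had -0.11 ± 0.05 and Ikbkg 0.04 ± 0.05. Bcl3 was above background on both KO arrays and on neither WT array, so no fold change is given. The counts of the lists hold it as higher. The 7 other dual-specificity phosphatases had 3 lower and 4 higher, with 0.11 ± 0.04 for Dusp7, 0.09 ± 0.07 for Dusp8, -0.10 ± 0.07 for Dusp16 and -0.03 ± 0.05 for Dusp9.

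Of 13 further genes of the SOCS, BTG, TOB and RNA-decay families 5 were lower and 8 higher. Btg3 was at 7.48 in both KO arrays and 7.23 in both WT arrays, a log2 fold change of 0.25 ± 0.04 with an unadjusted limma p of 0.00161 and an adjusted p of 0.727. Cish, a STAT5 target that restrains cytokine receptors, had 0.23 ± 0.10, Socs6 -0.17 ± 0.04 and Btg4 -0.09 ± 0.04.

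A further 36 kept genes known for rapid induction had 21 lower and 15 higher, with a median log2 fold change of -0.032, and 1 lower and 4 higher at an unadjusted limma p under 0.05, beside 3.08% and 3.67% of all genes. Mcl1, a survival factor with a short-lived transcript, was at 10.09 ± 0.09 in KO and 10.32 ± 0.04 in WT, and Ccn1, a matricellular protein, had -0.19 ± 0.08. Nfil3, a transcriptional repressor, had 0.63 ± 0.08, and Rgs2, a regulator of Gq signalling, 0.26 ± 0.06. Heat shock genes, which stress and handling also induce, had 8 of 10 higher and a median of 0.15, with 0 lower and 4 higher at that level, beside 3.08% and 3.67% of all genes. Hspb1, a small heat shock protein of muscle, was at 11.67 ± 0.02 in KO and 11.46 ± 0.03 in WT, and Bag3, a co-chaperone, at 9.72 ± 0.07 in KO and 9.47 ± 0.05 in WT. The strongly inducible Hspa1a and Dnajb1 had -0.23 ± 0.16 and -0.25 ± 0.20 and overlapped. Over all 118 kept genes of these lists 53 were lower and 65 higher in KO, with a median log2 fold change of 0.0087, and none passed the adjusted limma test.

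Markers of cardiomyocytes were present on all arrays, with 5 of 11 lower in KO and a summed normalized intensity of 222550 and 228010 in KO and 220480 and 217590 in WT. Without Actc1 the other 10 summed to 175830 and 181290 in KO and 173760 and 178510 in WT, which overlap. Actc1, Myl2 and Tnnt2 took the same high log2 values on every array, but exchanged on the second WT array. They stood there at 15.25, 15.51 and 15.37, and elsewhere at 15.51, 15.37 and 15.25. Together they add alike to each sum, so the order of the full sums lies in the remaining markers. Endothelial markers were lower in 6 of 10 and summed to 10544 and 11439 in KO and 9500.3 and 10123 in WT, an order carried by Fabp4. The other 9 summed to 1623 and 1675 in KO and 1772 and 1795 in WT, the other way. Macrophage markers were higher in 7 of 10 and summed to 2385 and 2762 in KO and 2400.1 and 2091 in WT, which overlap. Without Lyz2 the other 9, with 3 lower, summed to 1427.5 and 1545.9 in KO and 1401.9 and 1258.2 in WT, without overlap. Of 7 neutrophil markers 4 were kept and Mmp9 was not above background on any array. Their sum of 354 and 316 in KO and 419 and 454 in WT differed through Ly6g, with a log2 fold change of -0.75 ± 0.16, and the other 3 summed to 190.3 and 194 in KO and 194 and 199.5 in WT. Fibroblast markers, 4 of 8 of them lower, summed to 4190.4 and 3712 in KO and 4876 and 4399.9 in WT, an order carried by Dcn, and the other 7 summed to 1821 and 1872 in KO and 1991 and 1502 in WT, which overlap. Atrial markers summed to 4232 and 6382 in KO and 3430 and 3434 in WT, nearly all of it Nppa, which encodes atrial natriuretic peptide and had a log2 fold change of 0.64 ± 0.21 with an unadjusted limma p of 0.0324. The other 2 kept atrial markers summed to 162 and 152 in KO and 149 and 245 in WT. Markers of red cells were higher in all 5 kept of 9, with sums of 3669.6 and 3807 in KO and 1215 and 3069.9 in WT, low on the first WT array, and Slc4a1 was not above background. The part of these markers in the values of the immediate early genes was not tested.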

How the data were processed

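Amplified Cy5-labelled RNA was hybridised to Toray arrays, per the labels' protocols. The deposited scanner files give spot and local background medians as linear intensity, per the file headers; how 3 scanner gains were joined is not stated there. A deposited table of the authors holds processed intensity of the same arrays, which follows the spot medians in a straight line after subtraction of 78.4 to 87.7 units, with a median of 25 per array.

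Spot medians of the 27456 spots were corrected with normexp (limma 3.58.1, R 4.3.3, offset 50), without local background, which followed the spots (correlation of log2 values 0.928 to 0.965). With this offset, dim probes give understated fold changes. Log2 values were quantile normalized. Symbols came from the platform annotation, for 20690 of 23473 probes. A gene was represented by its brightest kept probe. KO and WT were compared with lmFit and eBayes without covariates, two-sided, with Benjamini-Hochberg adjustment over 15955 genes, a threshold of 0.05, 2 residual and 2.49 prior degrees of freedom. Exact permutation of 2 against 2 arrays cannot reach that threshold. The fit was tested on simulated data. Members and lists were chosen with earlier results of these data known. Every kept member is given; of each other list, the 2 genes per direction with the smallest p. Lists were described by counts, without a set test. Alternatives changed background, normalization, filter, probe choice, variance model and source of values, added a replicate block, or left out each array.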

Additional observations from a re-analysis of the deposited data

How the results depend on the processing

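The count of 0 genes past the adjusted limma test (491 lower and 585 higher at unadjusted p under 0.05) held in each of the 17 alternatives except without the second WT array, where 1 gene passed, Hba-a2 (haemoglobin alpha, adjusted limma p 0.0487), named after its value was seen, so that leaving out 1 array gave 0 to 1. That split was 676 and 397 with median scaling, 462 and 198 in the authors' values and 415 and 718 with 75th percentile scaling. The median log2 fold change of the 35 genes stayed below 0. It was -0.11 with an offset of 16, -0.17 with an offset of 0 and -0.24 in the authors' processed values, which shrink dim probes less or not at all, -0.031 with 75th percentile scaling and -0.018 after local background subtraction. Leaving out 1 array gave -0.072 to -0.027. The count of lower genes was 19 to 26 over all alternatives, in which the share of all genes lower ran from 30.2% to 51.9%. In place of 7 lower genes at an unadjusted p under 0.05 there were 4 with 75th percentile scaling, 4 with the filter on all arrays, and 2 to 10 without 1 array, where the share of all genes lower moved with it, from 1.22% to 7.53%. Leaving out an array leaves 1 group with a single array, assumed to vary like the other group. In place of 0 higher there was 1 with an offset of 0 (Zfp36), 1 after local background subtraction (Jun) and 1 in the authors' values (Zfp36), and 0 to 3 without 1 array. After local background subtraction the sign of 4 of these 7 genes turned, and the cause was not tested. They went to 0.39 for Jun, 0.013 for Dusp4, 0.31 for Socs3 and 0.000837 for Ptgs2. The lower genes at an unadjusted limma p under 0.05 were then 5, Btg1, Btg2, Dusp1, Nfkbia and Csrnp1, beside 3.64% of all genes. In the authors' processed values they were 6, Btg1, Btg2, Atf3, Ptgs2, Myc and Egr2, beside 3.11%. The samples share replicate numbers only; deviations of same-numbered samples correlated at 0.0967, and with the number as a replicate block 7 genes were lower and 0 higher below that unadjusted p, without Klf10 (p 0.0663) and Ptgs2 (p 0.0939) and with Nr4a1 (p 0.0189) and Egr1 (p 0.0498). Of the 35 genes, 11 kept their sign in every alternative that measured them. Alternatives in filter, probe choice, variance model or replicate block could not turn a sign, as each gene has 1 probe. Signal over background limits the dim genes, Fos, Egr2, Egr3, Nr4a2, Dusp5 and Zfp36 among them.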
